A study of Astatotilapia calliptera and Pundamilia nyererei and Oreochromis niloticus with 31 samples.

Results

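Maverick elements are giant DNA transposons, and the curated transposable element (TE) annotation of Lake Malawi cichlids holds 3 families of them, Maverick-1, Maverick-2 and Maverick-3. They were taken by name and make up 3 of the 557 families for which piRNA levels were given. Levels were read in 14 of the 31 small RNA (sRNA) libraries of the series, all from wild-type fish. *Astatotilapia calliptera* (AC) is represented by 3 ovary, 4 testis and 1 muscle libraries. *Maylandia zebra* (MZ) gave 2 libraries from testes and *Tropheops* sp. 'mauve' (TM) gave 4. No treatment was applied, and the age of the fish is not given in the sources used here, other than that the MZ males were adult. AC and TM were kept in aquaria under a shared regime, and the dominant MZ males were bred in captivity by a commercial supplier, so species and origin cannot be told apart for MZ. Replicates came from size-matched individuals of a species, and ovary libraries that failed the quality control of the study were left out by its authors. The other libraries belong to species whose TE families carry model identifiers only, so Maverick was not analysed in them here.

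Mavericks, also called Polintons, are among the largest DNA transposons known. They carry terminal inverted repeats and genes for their own protein-primed DNA polymerase and a retrovirus-like integrase, and many also encode proteins related to those of viral capsids. piRNAs are sRNAs bound by Piwi proteins that guide the silencing of TEs in animal gonads by base pairing with TE transcripts. Maverick-1 is on the list of families that the study takes as likely active in recent evolutionary time, and Maverick-2 and Maverick-3 are not. That list came from insertion polymorphisms in genomes, not from the sRNA libraries.

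The deposited values are regularised log (rlog) values of reads of 24 to 35 nucleotides, the size range of piRNAs. They are on the log2 scale, and they are centred across libraries. Each value sums a whole family, with no adjustment for how long or how numerous its copies are, so the order of families within a library is one of totals, not of density. The AC genome served as reference for all 3 species, and lower levels in MZ and TM cannot be told apart from reads that map less well to it. Some libraries stood apart. NA-DNA-22, the most abundant family by mean linear value, was at 19.94 in muscle and at 18.73, 18.46 and 17.23 in the 3 ovaries. In testes it ranged from 14.20 to 15.93 apart from MZ testes replicate 1, where it was 16.92. TM testes replicates 1 and 3 were the most alike pair of replicates, with an SD of 0.051 for their differences over the families against 0.12 to 0.18 for other pairs of TM testes.

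Maverick-1 had rlog values of 14.80, 14.53 and 15.21 in AC ovaries replicates 1 to 3, and of 13.42, 13.41, 13.22 and 13.42 in AC testes replicates 1 to 4. The 3 ovaries were all above the 4 testes, with AC ovaries replicate 3 highest and AC testes replicate 3 lowest. In testes of MZ, Maverick-1 was at 13.51 and 13.41. In testes of TM it was at 13.58, 13.48, 13.56 and 13.44. The muscle library was lowest at 13.02. Each Maverick family had about 22 to 41 reads in muscle. The rlog method draws values from so few reads towards the mean of the family, so muscle rlog values cannot be set beside those of gonads as levels. By group means the order was ovaries of AC (14.85 ± 0.34, SD, n = 3), testes of TM (13.51 ± 0.068, n = 4), testes of MZ (13.46 ± 0.069, n = 2) and testes of AC (13.37 ± 0.10, n = 4). Over the 10 testis libraries the SD of Maverick-1 was 0.10, rank 485 of 557 families from the most variable, against a median of 0.18. With ovaries included it was 0.64, rank 11 of 557.

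Maverick-3 lay lower and varied across species. It was at 13.55, 12.96 and 13.58 in ovaries of AC and at 12.95, 12.96, 12.75 and 12.96 in testes of AC. The groups overlapped, because AC ovaries replicate 2 was level with the testes. Testes of MZ had 12.39 and 12.97, the widest gap between replicates of any testis group for a Maverick family. Testes of TM had 12.20, 12.09, 12.16 and 12.02, all below the libraries of the other gonad groups. Muscle had 12.13. The order of gonad group means was ovaries of AC (13.36 ± 0.35, SD, n = 3), testes of AC (12.91 ± 0.11, n = 4), testes of MZ (12.68 ± 0.41, n = 2) and testes of TM (12.12 ± 0.077, n = 4). The spread over the 10 testis libraries was 0.41, rank 25 of 557.

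Maverick-2 had 12.42, 12.42 and 12.38 in ovaries of AC and 12.21, 12.07, 12.14 and 12.23 in testes of AC. Testes of MZ had 12.42 and 12.44, level with the ovaries of AC, and testes of TM had 11.96, 11.83, 11.95 and 12.11. Muscle had 12.20. Testes of MZ (12.43 ± 0.014, SD, n = 2) and ovaries of AC (12.41 ± 0.023, n = 3) overlapped, and below them came testes of AC (12.16 ± 0.074, n = 4) and testes of TM (11.96 ± 0.11, n = 4), which also overlapped. Maverick-1 was the highest of the 3 families in 14 of 14 libraries, which are 13 from gonads and the muscle library with its few reads. Maverick-3 was above Maverick-2 in 11 of 14, and Maverick-2 was above Maverick-3 in muscle, in MZ testes replicate 1 and in TM testes replicate 4.

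**Figure D1:**
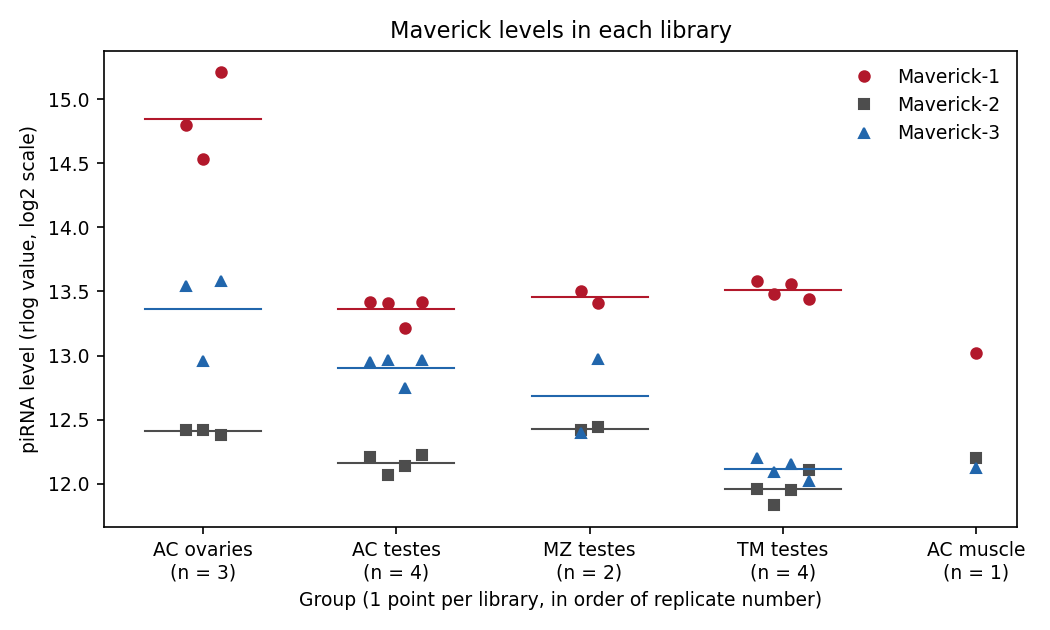
Levels of the 3 Maverick families, as rlog values on the log2 scale (vertical axis), in the 5 groups of libraries (horizontal axis), with 1 point per library and a line at each group mean. Maverick-1 separates the ovaries of AC (14.53 to 15.21) from all testes (13.22 to 13.58), and Maverick-3 is lowest among gonads in testes of TM (12.02 to 12.20). Muscle points rest on about 22 to 41 reads per family, which the rlog method draws towards the mean of the family.

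The families were far up the list of TE families in each library. Maverick-1 ranked 2 of 557 in each of the 3 ovaries of AC, below NA-DNA-22 (18.14 ± 0.80, SD, n = 3) and above L1-3 (14.42 ± 0.089, n = 3), a LINE retrotransposon family. In testes it ranked 7 to 9 in AC and MZ and 7 to 8 in TM. By group mean it stood there in AC between the internal entry of Pao-40 (13.42 ± 0.097, n = 4) and L1-Tx1-2 (13.22 ± 0.13, n = 4). The difference to Pao-40 was smaller than the SD of either family, and the difference to L1-Tx1-2 was larger. In muscle Maverick-1 ranked 43, Maverick-2 ranked 88 and Maverick-3 ranked 91, from about 41, 23 and 22 reads. Where reads are so few, the rlog method draws values towards the mean of each family. Its effect on these ranks was not tested.

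Maverick-3 ranked 9 to 19 in ovaries and 13 to 24 in testes of AC. By group mean it lay between the internal entries of ERV1-3 (13.45 ± 0.35, SD, n = 3) and ERV1-1 (13.33 ± 0.12, n = 3) in ovaries. In testes it lay between RTE-BovB-3 (12.92 ± 0.064, n = 4) and the internal entry of Gypsy-102 (12.88 ± 0.12, n = 4). It ranked 45 and 16 in the 2 testes of MZ, and fell to ranks 66 to 88 in testes of TM. Maverick-2 ranked 52 to 56 in ovaries of AC, between the internal entry of ERV1-2 (12.43 ± 0.069, n = 3) and CMC-EnSpm-16 (12.40 ± 0.15, n = 3). It ranked 59 to 77 in testes of AC, between the internal entries of Gypsy-36 (12.19 ± 0.18, n = 4) and ERV1-10 (12.14 ± 0.054, n = 4). Its ranks were 42 and 43 in MZ and 73 to 113 in TM.

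On the linear scale, the 3 families together made up 2.77% ± 0.731 (SD, n = 3) of the summed TE values in ovaries of AC. Among testes they made up 1.77% ± 0.109 (n = 4) for AC, 1.74% ± 0.176 (n = 2) for MZ and 1.53% ± 0.0559 (n = 4) for TM. Maverick-1 took 64.7% ± 3.22 of the Maverick sum in the ovaries, against 46.3% ± 0.614 in AC testes, 48.1% ± 5.17 in MZ and 58.1% ± 1.11 in TM. Its share in gonads was thus lower in testes of AC and MZ, where Maverick-3 took 33.6% ± 0.642 and 28.4% ± 6.35, against 22.0% ± 0.618 in testes of TM. In muscle the sum was 0.652% and the Maverick-1 part of it 47.4%, both with the same limit as the muscle ranks.

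Between the organs of AC, Maverick-1 was lower in testes than in ovaries by 1.48 on the log2 scale, a 2.79-fold difference (testes minus ovaries −1.48 with a standard error of 0.14, n = 4 and 3 libraries, limma adjusted p = 0.000156). This was the third lowest of 554 changes. Maverick-3 fell by 0.46 (standard error 0.15, limma adjusted p = 0.0317) and Maverick-2 by 0.25 (standard error 0.078, limma adjusted p = 0.0292), which placed them at 91 and 166 of 554 from the lowest. All 3 families were thus past the threshold in the same direction, in a comparison where 42.1% of families were called, 20.8% as higher and 21.3% as lower in testes. Maverick-1 and Maverick-2 had no overlap between organs, which held for 48.2% of families, and Maverick-3 overlapped. The calls of Maverick-2 and Maverick-3 lay near the threshold, and each was lost when any of several libraries was left out. Maverick-2 missed the threshold without AC ovaries replicate 2 (−0.24, limma adjusted p = 0.0611) or without AC testes replicate 1, 2 or 3 (−0.27, −0.22 and −0.24, limma adjusted p = 0.0596, 0.0837 and 0.0687). Maverick-3 missed it without AC ovaries replicate 1 or 3 (−0.36 and −0.35, limma adjusted p = 0.118 and 0.109) or without AC testes replicate 1, 3 or 4 (−0.47, −0.40 and −0.47, limma adjusted p = 0.0539, 0.0818 and 0.0518). Maverick-1 stayed between −1.64 and −1.30 with any library left out, and its limma adjusted p was at most 0.00194.

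**Figure D2:**
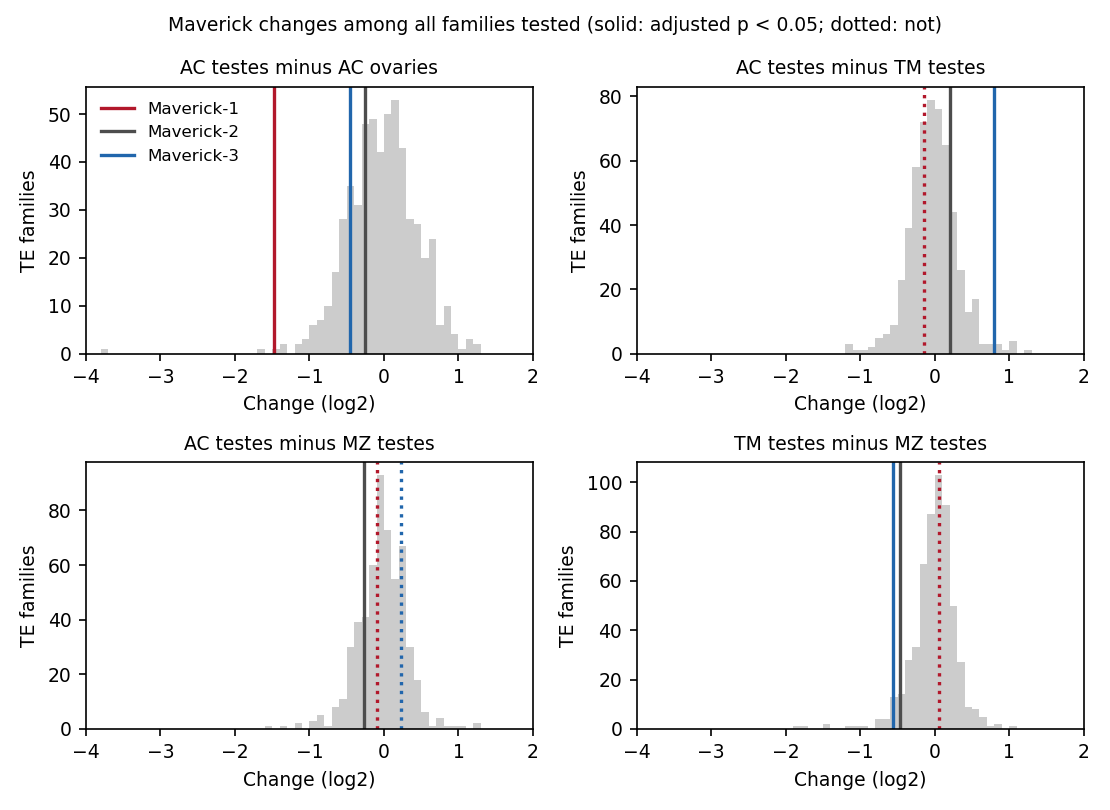
Changes of all 554 TE families tested (grey histograms, number of families against log2 change) in the 4 comparisons, with the 3 Maverick families as vertical lines, solid where the limma adjusted p was under 0.05. Maverick-1 lies in the lower tail only between the organs of AC (−1.48), and Maverick-3 in the upper tail between testes of AC and TM (0.79).

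These differences depend on what a library is scaled to, in direction for Maverick-2 and Maverick-3 and in size and call for Maverick-1. The rlog values centre the libraries on each other, and the median change of all families between the organs was −0.0079. Scaled to all 24 to 35 nucleotide reads, with the read totals of the study's mapping statistics, that median became 1.35, and the Maverick changes became −0.12 for Maverick-1 (standard error 0.56, limma adjusted p = 0.833), 1.11 for Maverick-2 (standard error 0.58, limma adjusted p = 0.0803) and 0.90 for Maverick-3 (standard error 0.57, limma adjusted p = 0.138). Scaled to the summed TE values, Maverick-1 was lower in testes by 1.10 (limma adjusted p = 0.000934), Maverick-2 was at 0.13 (limma adjusted p = 0.223) and Maverick-3 at −0.079 (limma adjusted p = 0.707). NA-DNA-22 took 9.89 to 24.4% of that sum in ovaries and 1.45 to 1.85% in testes of AC. With NA-DNA-22 left out of the sum, the 3 changes were −1.38, −0.14 and −0.35 (limma adjusted p = 0.000134, 0.173 and 0.0747). Relative to the median of all families, the changes were −1.47, −0.24 and −0.45 for Maverick-1, Maverick-2 and Maverick-3 with the values as deposited. Each scaling adds 1 constant per library to all families, so these relative changes are the same under all 4 scalings by construction and are no sign of stability. None of the 3 families passed the test when scaled to all piRNA-sized reads. That scaling also carries differences between libraries in the part of all reads that TE families took. The split of all calls moved as well, from 115 higher and 118 lower in testes as deposited to 304 and 1 under that scaling and to 267 and 28 under scaling to the summed TE values.

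**Figure D3:**
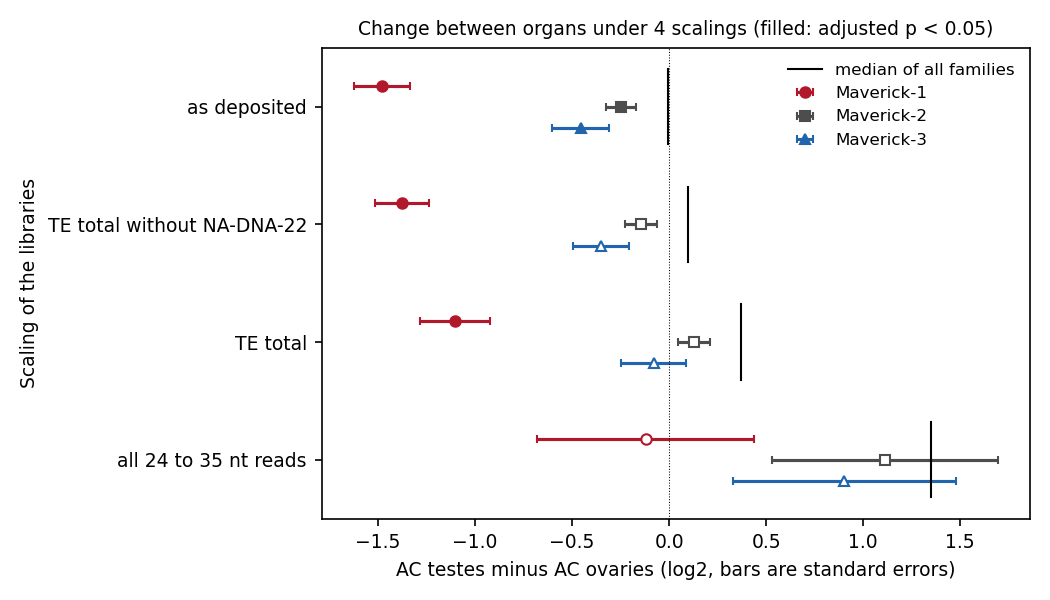
Change between testes and ovaries of AC (horizontal axis, log2, bars are standard errors of the limma fit) of the 3 Maverick families under 4 scalings of the libraries (vertical axis), with the median of all families as a black line. Maverick-1 moves from −1.48 as deposited to −0.12 when scaled to all 24 to 35 nucleotide reads, while the median of all families moves from −0.0079 to 1.35.

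As an approximate share of all 24 to 35 nucleotide reads, Maverick-1 took 0.134, 0.238 and 0.786% in the 3 ovaries of AC and 0.276, 0.281, 0.236 and 0.287% in the 4 testes. The ovaries thus lay on either side of the testes, with AC ovaries replicate 1 lowest and replicate 3 highest of all 14 libraries but muscle. Maverick-3 took 0.0561, 0.0802 and 0.254% in ovaries and 0.171 to 0.208% in testes of AC, and Maverick-2 took 0.0258, 0.0551 and 0.111% and 0.110 to 0.125%. In other testes Maverick-1 took 0.215 and 0.223% in MZ and 0.259 to 0.315% in TM. Gonad libraries held from about 1003 to 65541 reads per Maverick family, so counting alone gives an SD of 0.0056 to 0.046 on the log2 scale. The SD of rlog values between ovaries was above this for Maverick-1 (0.34) and Maverick-3 (0.35), and within it for Maverick-2 (0.023). The read shares of all 3 families in ovaries lay farther apart than counting alone gives. In proportion they also lay farther apart than shares of the summed TE values. Those were 1.38 to 2.45% for Maverick-1, 0.308 to 0.345% for Maverick-2 and 0.464 to 0.791% for Maverick-3. The part of all reads that TE families took thus differed among the 3 ovaries, which enters the read shares of every family. Much of the ovary spread in read shares is therefore not particular to Maverick.

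Muscle, with 1 library, held few Maverick reads. About 41 reads of Maverick-1, 23 of Maverick-2 and 22 of Maverick-3 were estimated, with exact 95% Poisson intervals of 29.5 to 55.7, 14.9 to 34.9 and 13.9 to 33.5 that cover counting error only. As shares of all 24 to 35 nucleotide reads these were 0.00242, 0.00138 and 0.00131%. The lowest gonad library, AC ovaries replicate 1, exceeded these shares 55.3-fold for Maverick-1, 18.7-fold for Maverick-2 and 43.0-fold for Maverick-3. Against the upper bounds of the muscle intervals these were 40.7-, 12.5- and 28.4-fold. Part of each fold was shared by all TE families, which together took a smaller part of the reads in muscle. Of the summed TE values, the 3 Maverick families took 0.652% in muscle and 2.58% in AC ovaries replicate 1. For Maverick-2 alone these were 0.176 and 0.308%, so the gaps within TE values were much smaller than the folds. Reads, intervals and folds were all derived from the rlog values, which the rlog method draws towards the mean of each family where reads are few, and neither the intervals nor the folds cover that step, whose size was not tested. The rlog values of muscle, 13.02, 12.20 and 12.13, do not show a difference of this size. The order of the families in muscle is within counting error for Maverick-2 and Maverick-3. No test was run with 1 library.

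**Figure D4:**
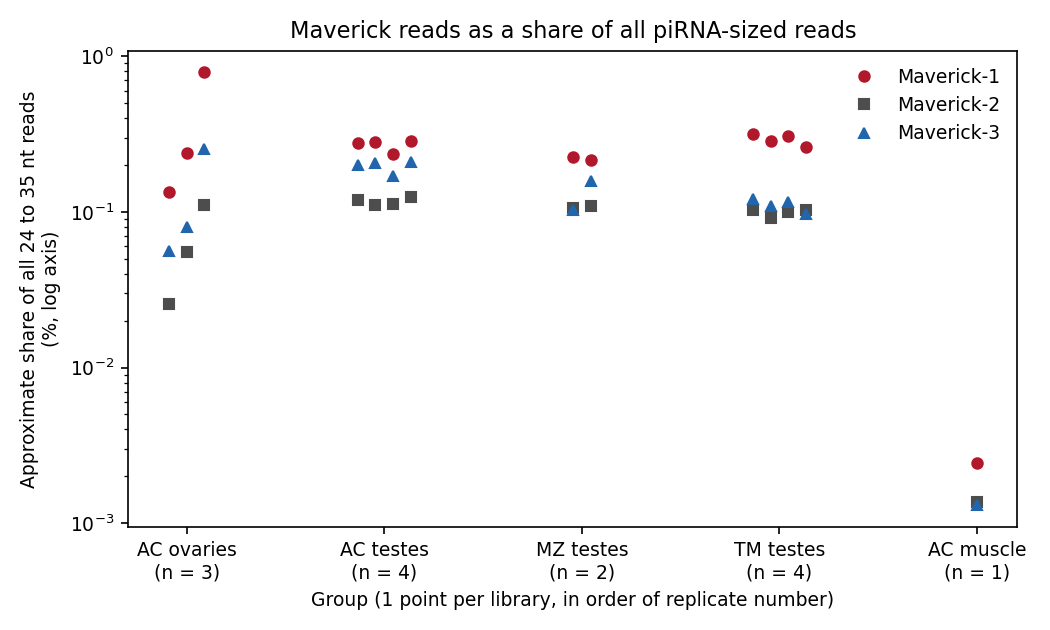
Approximate share of all 24 to 35 nucleotide reads (vertical axis, percent on a log axis) taken by each Maverick family in the 5 groups (horizontal axis), with 1 point per library. Shares of Maverick-1 in the ovaries of AC (0.134 to 0.786%) enclose those in its testes (0.236 to 0.287%), and the muscle library lies below all gonads at 0.00242%.

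Between testes of AC and TM, the families parted. Maverick-3 was higher in AC by 0.79 on the log2 scale, a 1.73-fold difference (standard error 0.062, limma adjusted p = 3.75e-05, n = 4 and 4), rank 10 of 554 from the highest. The 4 AC libraries, at 12.75 to 12.96, did not overlap the 4 TM libraries, at 12.02 to 12.20. Maverick-2 was higher in AC by 0.20 (standard error 0.064, limma adjusted p = 0.0320), with overlapping libraries. Maverick-1 went the other way, at −0.15 (standard error 0.057, limma adjusted p = 0.0620), and did not pass the threshold although its libraries did not overlap. In this comparison 42.4% of families were called, 20.9% as higher in AC, and 42.6% had no overlap. Maverick-3 stayed between 0.76 and 0.84 without any 1 library. Maverick-2 missed the threshold without AC testes replicate 1 or 4 (0.18 and 0.18, limma adjusted p = 0.0766 and 0.0706), without TM testes replicate 1, 2 or 3 (0.20, 0.16 and 0.19, limma adjusted p = 0.0693, 0.0889 and 0.0778) and with TM testes replicates 1 and 3 counted as 1 library (limma adjusted p = 0.0733).

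Between testes of AC and MZ, only Maverick-2 passed the threshold among the 3 families, and narrowly. It was lower in AC by 0.27 (standard error 0.077, limma adjusted p = 0.0492, n = 4 and 2), and no library overlapped. In this comparison 16.2% of families were called, 7.22% as higher and 9.03% as lower in AC, and 41.9% had no overlap. The number called was 90 with all libraries and 5 to 57 with any 1 library left out, and Maverick-2 then missed the threshold each time, with limma adjusted p from 0.0742 to 0.165. Maverick-3 was at 0.22 (standard error 0.15, limma adjusted p = 0.348), with 1 testis of MZ just above the AC libraries and the other below them. Its difference was −0.068 with MZ testes replicate 1 left out and 0.51 with the other left out (limma adjusted p = 0.0698). Maverick-1 differed by −0.091 (standard error 0.084, limma adjusted p = 0.499). Scaled to all 24 to 35 nucleotide reads, where the median of all families rose by 0.39, Maverick-1 was higher in AC by 0.30 (limma adjusted p = 0.0277), Maverick-3 by 0.61 (limma adjusted p = 0.0175) and Maverick-2 by 0.12 (limma adjusted p = 0.234). The split of all calls then became 314 higher and 9 lower in AC, from 40 and 50.

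Testes of TM were lower than testes of MZ in Maverick-3 by 0.57 (standard error 0.14, limma adjusted p = 0.0277, n = 4 and 2) and in Maverick-2 by 0.47 (standard error 0.076, limma adjusted p = 0.00545). Neither family overlapped between the species, which held for 46.4% of families, and 23.3% were called, 12.8% as lower in TM. They stood 20 and 34 of 554 from the lowest. Maverick-1 differed by 0.057 (standard error 0.063, limma adjusted p = 0.547). The size for Maverick-3 depended on which MZ library was kept, at −0.86 with MZ testes replicate 1 left out and −0.28 with the other left out, and it missed the threshold without TM testes replicate 2, 3 or 4 (−0.56, −0.58 and −0.54, limma adjusted p = 0.0727, 0.0584 and 0.0635) or with TM testes replicates 1 and 3 as 1 library (−0.59, limma adjusted p = 0.0545). Calls over all families fell from 129 to between 62 and 66 without TM testes replicate 1, 2 or 3. MZ testes replicate 1, low in Maverick-3 at 12.39, was also the testis library with the highest NA-DNA-22 (16.92, against 14.92 in MZ testes replicate 2), and the part of that in the result was not tested. Scaled to all 24 to 35 nucleotide reads, which raised the median of all families by 0.35 and gave 377 calls higher and 14 lower in TM in place of 58 and 71, Maverick-1 was higher in TM by 0.41 (limma adjusted p = 0.00471), while Maverick-2 at −0.12 and Maverick-3 at −0.22 were no longer called (limma adjusted p = 0.221 and 0.227). These 3 comparisons between species share libraries, so their results are not independent.

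A difference between families taken within a library does not depend on the scaling between libraries. Between the organs of AC, the length of the elements in the shared annotation cancels as well. Between species this is not known. The length and number of Maverick copies in MZ and TM were not available, and all reads were mapped to the AC genome. Their part in the differences between species was not tested. Maverick-1 exceeded Maverick-3 by 0.47, 0.45, 0.47 and 0.46 in the 4 testes of AC (mean 0.46 ± 0.0095, SD) and by 1.39, 1.39, 1.40 and 1.42 in the 4 testes of TM (1.40 ± 0.014). The difference between AC and TM, −0.94, was larger than the spread within either (two-sided exact permutation test, p = 0.0286, the smallest that 4 against 4 libraries can give). This contrast is an alternative to the lead described below, and its p was not adjusted. It restates the changes of Maverick-1 and Maverick-3 between AC and TM given above, so it is no separate support for them. In the 2 testes of MZ the same quantity was 1.11 and 0.43, 1 near each species. The ovaries of AC had 1.25, 1.57 and 1.63, and muscle had 0.89, from few reads.

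The lead of Maverick-1 over the mean of Maverick-2 and Maverick-3 was 1.96 ± 0.23 (SD, n = 3) in ovaries of AC and 0.83 ± 0.051 (n = 4) in testes of AC. Every ovary was above every testis, and the difference of −1.13 had p = 0.0571 in the two-sided exact permutation test, the smallest that 4 against 3 libraries can give. Testes of TM had a lead of 1.48 ± 0.067 (n = 4), all above the testes of AC, a difference of −0.64 for AC minus TM (two-sided exact permutation test, p = 0.0286). That p was 0.0571 with any 1 library left out, again the smallest possible. Against Maverick-2 alone the difference was −0.35 and missed the threshold (two-sided exact permutation test, p = 0.0571, where 0.0286 could be reached). Testes of MZ had leads of 1.10 and 0.70, so the difference to AC was −0.067 (two-sided exact permutation test, p = 0.667) and turned to 0.13 without MZ testes replicate 1. TM exceeded MZ by 0.57 (two-sided exact permutation test, p = 0.133, the smallest that 4 against 2 can give). Adjusted over these 4 comparisons of the lead, p was 0.114 for the organs of AC and for AC against TM, 0.178 for TM against MZ and 0.667 for AC against MZ (Benjamini-Hochberg, exact permutation tests). Maverick-3 minus Maverick-2 averaged 0.95 ± 0.36 (SD, n = 3) in the ovaries of AC, where replicate 2 was lowest at 0.54 and replicate 3 highest. AC testes had 0.74, 0.90, 0.61 and 0.73, MZ testes −0.029 and 0.53, and TM testes 0.24, 0.26, 0.21 and −0.085. It was at least 0.54 in each gonad library of AC and at most 0.26 in each testis of TM.

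**Figure D5:**
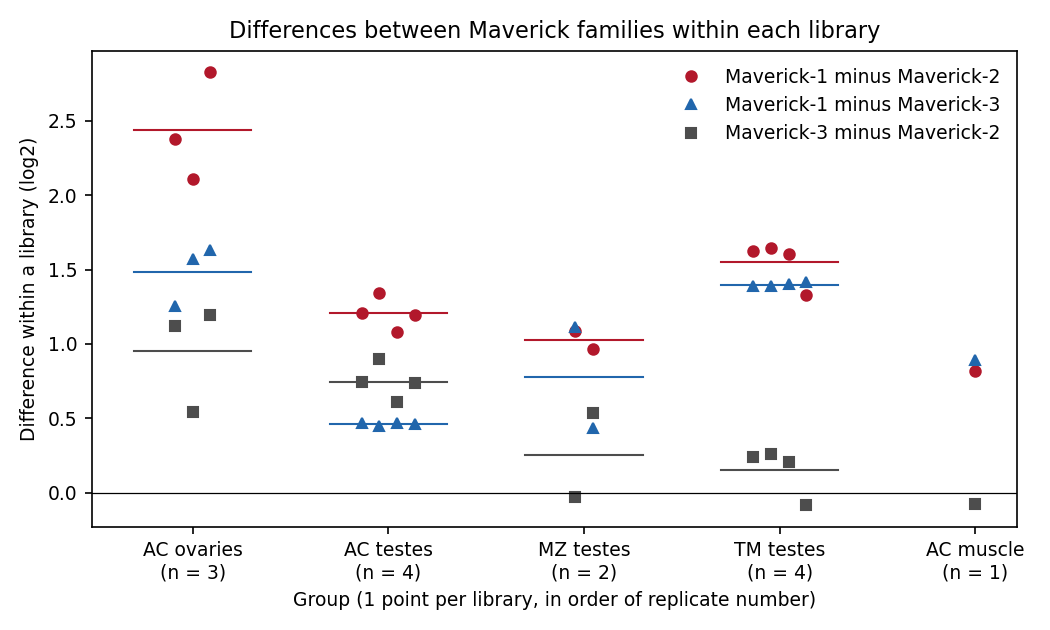
Differences between the Maverick families within each library (vertical axis, log2) in the 5 groups (horizontal axis), with 1 point per library and a line at each group mean. Maverick-1 minus Maverick-3 is nearly constant within testes of AC (0.45 to 0.47) and of TM (1.39 to 1.42), and the 2 testes of MZ lie apart at 1.11 and 0.43.

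Beside the Mavericks, the 129 other DNA families tested had a median change of 0.28 between testes and ovaries of AC, with 65 higher and 11 lower in testes, against a median of −0.0079, 115 higher and 118 lower over all 554 families. With the values as deposited, the Maverick families thus lay on the side of the 11. The counts of other DNA families were not repeated under other scalings. Scaled to the summed TE values, Maverick-2 was at 0.13 and Maverick-3 at −0.079, neither of them called. That scaling raised the change of every family by the same 0.38, other DNA families included. The gap between each Maverick family and the median of the other DNA families was therefore unchanged. Between testes of AC and TM, 47 of the other DNA families were higher in AC and 20 lower (median 0.083), so 51.9% were called against 42.4% of all families. Between AC and MZ, 26 of the 129 were higher and 5 lower (median 0.16), beside 16.2% called among all families. Between TM and MZ, 20 were higher and 5 lower in TM (median 0.066), or 19.4% against 23.3%. The other likely active families of the study, with 18 entries from 13 families in the table, had a median change between the organs of AC of 0.064, with 6 higher and 1 lower in testes, and their lowest change was −0.51. The −1.48 of Maverick-1 was therefore below the changes of all 18 entries. These 7 calls were 38.9% of the entries, near the 42.1% of all families. Between testes of AC and TM, 5 entries were higher in AC and 1 lower (33.3% called, against 42.4% of all families), and between AC and MZ 3 were higher and 0 lower (16.7%, against 16.2%). Between TM and MZ, where 23.3% of all families were called, limma called 0 of 18 with adjustment and 4 had an unadjusted p under 0.05.

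The patterns of the 3 Mavericks over the 13 gonad libraries were not most like each other. Each family was centred on its own mean, and likeness was the root mean square difference between centred values, in which neighbours can share library effects. This distance also depends on how much each family varies. The spread around the own mean was 0.61 for Maverick-1, 0.20 for Maverick-2 and 0.50 for Maverick-3. That spread equals the distance to a family that does not change over the libraries. The nearest family to Maverick-1 was LTR-51, an LTR retrotransposon family by its name, at 0.17, with group means of 9.56 in ovaries of AC and 8.23, 8.31 and 8.32 in testes of AC, MZ and TM. The internal entry of Gypsy-105 (0.26) and Gypsy-106 (0.28) came next. Maverick-2 was nearest to the LTR entries of Gypsy-80 (0.12) and Gypsy-94 (0.13) and to L1-8 (0.14). Maverick-3 was nearest to the LTR entry of Pao-27 (0.22), the internal entry of Pao-25 (0.23) and the LTR entry of Pao-34 (0.25), and Pao-27 had 7.31, 7.19, 6.89 and 6.35 in ovaries of AC and testes of AC, MZ and TM. Maverick-3 stood at place 84 of the families nearest to Maverick-1 (0.47) and Maverick-2 at place 135 (0.54), where the median over all families was 0.64. From Maverick-3, Maverick-2 was at place 50 (0.39) and Maverick-1 at place 137 (0.47), where the median was 0.55. From Maverick-2, Maverick-3 was at place 424 (0.39) and Maverick-1 at place 524 (0.54), both farther than the median family (0.30). Maverick-2 itself varied little, so these places do not show an opposed pattern.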

How the data were processed

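Small RNA libraries of 24 to 35 nucleotide reads from gonads and muscle were summarised per TE family. Per the study's methods and the submitters' processing notes, adapters were removed with cutadapt 1.15, reads were mapped with STAR 2.5.4b to the AC genome with multimapping reads placed at random, families of the curated annotation were counted with featureCounts 1.6.0, and DESeq2 gave normalised values. The stated counting options name no strand, so sense and antisense reads were not separated. The values deposited by the authors are rlog values on the log2 scale. Without counts, no count test was run. Reads per family are approximate, taken from the linear values and the study's read totals.

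Groups were taken from the labels, and 0 value columns were left unmapped. Families with a mean rlog value of at least 3.32, the log2 of 10, were kept (554 of 557). They were fitted with limma 3.58.1 (R 4.3.3) with a mean trend, 2 groups at a time. Tests were two-sided, with Benjamini-Hochberg adjustment over all families fitted and a threshold of 0.05. Within-library differences were compared by exact permutation of the libraries in Python 3.11.15 (tables in pandas 2.3.3, arrays in numpy 2.4.6), and plots were drawn with matplotlib 3.10.9. The limma script was tested on simulated data. Alternatives were the filter, the scaling, 1 fit for all gonads, no trend, a replicate block, TM testes replicates 1 and 3 as 1 library, and leaving out each library.

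Named families are the 3 Mavericks, for each the 3 with the most similar centred pattern, and its neighbours by mean in ovaries and testes of AC. The lists were other DNA families, by name, and the study's likely active families. Members and lists were chosen with earlier results of these data known. The 4 other tables hold no family named Maverick and were not used. The study's methods describe biological replicates as tissue of size-matched individuals, and the labels say nothing more on their independence. The p-values therefore judge differences between groups against the variation among these libraries, and may not hold for other fish.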

Additional observations from a re-analysis of the deposited data

Results flagged for a closer look

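In groups of 4 libraries, a library was singled out where its gap to the nearest other, divided by the range of the group, exceeded 0.829, which chance gives in about 1 in 20 groups. AC testes replicate 3 was lowest for Maverick-1, at 13.22 against 13.41 to 13.42 in the other 3 (ratio 0.949), and for Maverick-3, at 12.75 against 12.95 to 12.96 (ratio 0.951). Its Maverick-1 minus Maverick-3 difference, 0.47, was close to those of the other testes of AC (0.45 to 0.47). TM testes replicate 4 had the lowest lead of Maverick-1, 1.37 against 1.50 to 1.52 (ratio 0.915), and the lowest Maverick-3 minus Maverick-2, −0.085 against 0.21 to 0.26 (ratio 0.847). Over all 557 families, 24 (4.31%) had such a library among testes of AC, 11 of them replicate 3, and 29 (5.21%) among testes of TM, 14 of them replicate 4.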

How the results depend on the processing

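Of 183 alternative values for changes of the 3 families, 136 kept direction and side of the threshold and 6 changed sign. The call of Maverick-3 between testes of AC and TM held under every alternative run (0.76 to 0.84), as did that of Maverick-1 between the organs of AC except when scaled to all reads (−0.12). Scaled to all reads, the organ changes of Maverick-2 and Maverick-3 turned to 1.11 and 0.90, those between AC and MZ became 0.30, 0.12 and 0.61 for Maverick-1, Maverick-2 and Maverick-3, those between TM and MZ became 0.41, −0.12 and −0.22, and 323 (AC and MZ) and 391 (TM and MZ) families were called. Scaled to the TE total, organ changes were 0.13 for Maverick-2 and −0.079 for Maverick-3, Maverick-2 between AC and MZ was −0.21 and Maverick-3 between TM and MZ −0.54, and all 4 calls were lost (limma adjusted p = 0.223, 0.707, 0.106 and 0.0501). Without NA-DNA-22 in that total, organ changes of Maverick-2 and Maverick-3 were −0.14 and −0.35, no longer called. Maverick-2 between AC and MZ, at −0.27, missed the threshold with a minimum mean of 100 (limma adjusted p = 0.0518) and without the mean trend (limma adjusted p = 0.0773). One fit for all gonads called 60 families between TM and MZ. With TM testes replicates 1 and 3 as 1 library, Maverick-2 between AC and TM lost its call (0.20, limma adjusted p = 0.0733). So did Maverick-3 between TM and MZ (−0.59, limma adjusted p = 0.0545, with 63 families called). The lead for AC minus TM was then −0.63 (unadjusted exact permutation p = 0.0571, the smallest possible). With all libraries, the exact permutation p of that lead was 0.0286 unadjusted and 0.114 with Benjamini-Hochberg adjustment, so it was not a call after adjustment. Against Maverick-2 alone, the lead for AC minus TM was −0.35 (unadjusted exact permutation p = 0.0571). For AC minus MZ it turned to 0.18 (unadjusted exact permutation p = 0.267). The cause was not tested.

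Whether replicate numbers pair the samples was not settled. Deviations of same-numbered libraries from their group means had correlations of −0.10 to −0.047 between organs, against −0.057 to 0.13 for differently numbered ones. For AC and TM they were 0.016 to 0.18, all above 0, against −0.21 to 0.19. They were −0.11 to −0.076 for AC and MZ and −0.36 to −0.21 for TM and MZ. With 2 libraries of MZ, their deviations are exact opposites, so the values with MZ cannot test pairing. With a replicate block, the organ changes of Maverick-2 and Maverick-3 were −0.27 and −0.47, Maverick-2 between AC and MZ was −0.29 with 48 families called, and Maverick-3 between TM and MZ was −0.54 with 21 called, none of these 4 changes past the threshold.

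With 1 library left out, the organ changes were −0.27 to −0.22 for Maverick-2 and −0.66 to −0.35 for Maverick-3. Between AC and TM, Maverick-2 was 0.16 to 0.25 and the lead −0.68 to −0.62. Between AC and MZ, Maverick-2 was −0.29 to −0.24, Maverick-3 −0.068 to 0.51, the lead −0.27 to 0.13, and 5 to 57 families were called. Between TM and MZ, Maverick-3 was −0.86 to −0.28 and 62 to 154 families were called. Where this left 1 MZ library, it was assumed to vary like the other group. The single muscle library and about 22 to 41 reads per family there limit any statement on muscle.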
